A study of Mus musculus with 10 samples.

Results

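The 6 actin genes of the mouse, Acta1, Acta2, Actc1, Actb, Actg1 and Actg2, were followed in heart muscle cells in which Cre targeted Actn2, the gene of alpha-actinin-2, which ties thin filaments together at the Z-line of the sarcomere. The members were the rows of the deposited count table that carry these 6 names, and all 6 of 6 were found among 23337 genes. The 10 samples are mouse cardiomyocytes of postnatal day 14, described as biological replicates, and the labels do not say whether each came from 1 animal. The knockout group (5 samples) carried 2 floxed Actn2 alleles (Actn2-FF) and the heterozygote group (5 samples) 1 floxed and 1 normal allele (Actn2-F+). Both groups had received the virus AAV9-cTNT-Cre on postnatal day 1, so the controls also carried Cre and had 1 allele open to deletion, and no animal without the virus was compared. The cardiac troponin T promoter limits Cre mainly to cardiomyocytes, and cells were sorted by fluorescence after collagenase perfusion. The labels give neither sex nor the marker used for sorting.

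Actin is the protein of the thin filament and of the cytoskeleton. Cells make it from several genes whose products are nearly the same: cardiac actin (Actc1) and skeletal actin (Acta1) build the thin filaments of striated muscle, smooth-muscle actin (Acta2) and enteric smooth-muscle actin (Actg2) those of smooth muscle, and beta and gamma actin (Actb, Actg1) the filaments of the cell cortex. In the mouse heart, smooth-muscle and skeletal actin are expressed before and around birth and then give way to cardiac actin, and skeletal actin returns in the loaded or failing ventricle. Muscle actin genes are classical targets of the serum response factor SRF, which binds a short DNA element called the CArG box.

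The genes lie on 6 chromosomes, all on the minus strand, and their exons overlapped no other gene of the counting annotation. In mm10, Acta1 lies on chromosome 8 (123891767 to 123894736, 7 exons), Acta2 on chromosome 19 (34241091 to 34255336, 9 exons) and Actc1 on chromosome 2 (114047289 to 114052811, 7 exons). Actb lies on chromosome 5 (142903116 to 142906724, 6 exons), Actg1 on chromosome 11 (120345690 to 120348484, 6 exons) and Actg2 on chromosome 6 (83512909 to 83536251, 9 exons). The first 60 coding bases of each (GENCODE M21, build GRCm38, 5′ to 3′) show how close the messages are and where reads can tell them apart. Capitals mark positions that are not the same in all 6 when the whole coding sequences are aligned.
Acta1: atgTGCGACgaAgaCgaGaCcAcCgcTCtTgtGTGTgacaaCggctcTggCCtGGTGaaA
Acta2: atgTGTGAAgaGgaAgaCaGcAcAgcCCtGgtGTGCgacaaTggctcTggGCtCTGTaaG
Actc1: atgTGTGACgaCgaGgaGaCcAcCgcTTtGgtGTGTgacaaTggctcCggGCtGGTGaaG
Actg2: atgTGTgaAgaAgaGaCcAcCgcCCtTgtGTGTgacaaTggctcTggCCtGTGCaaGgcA
Actb: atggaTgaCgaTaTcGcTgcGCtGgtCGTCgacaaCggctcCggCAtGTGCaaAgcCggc
Actg1: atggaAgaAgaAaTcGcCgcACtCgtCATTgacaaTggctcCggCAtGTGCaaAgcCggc
The coding sequence has 1131 bases in Acta1, Acta2 and Actc1, 1128 in Actg2, and 1125 in Actb and Actg1. Over the coding sequence, 69.8% of the alignment was identical in all 6. The closest pair was Actb and Actg1 (88.6% of aligned bases identical) and the most distant Acta2 and Actg1 (82.0%). Reads that fit several places are not counted under the program's defaults, and this touches the genes unequally. Of all stretches of 50 bases in the messenger RNA, 56.7% were also found in transcripts of other genes for Actg1, most of them in the transcript of Gm12715 (51.1%). The share was 14.2% for Actb, 2.22% for Acta1, 0.352% for Acta2, and 0% for Actc1 and Actg2. The level of Actg1, and to a lesser extent Actb, can therefore be too low in both groups.

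Total counts ran from 8086656 to 25237696 per sample. Actn2 itself was lower in every knockout (1145 to 1286 CPM, counts scaled to a library of 1000000 after TMM, edgeR's correction for composition) than in every heterozygote (2677 to 3474 CPM), the direction that the labels give. Of 11870 genes tested with edgeR's quasi-likelihood test, 2241 (18.9%) had an adjusted p below 0.05, 10.2% higher and 8.64% lower in the knockout. All 6 actin genes passed the filter on low counts. Of them 1 was called higher (Acta1) and 2 were called lower (Acta2 and Actg1), while Actc1, Actb and Actg2 were not called. The median log2 fold change was -0.40 over the 6 genes and 0.00 over all tested genes. In 2 of the 6 genes the groups did not overlap, both with the knockout below, and this was so in 6.32% of all tested genes (14.7% in either direction, 8.41% with the knockout above). In these sorted cells a lower level in a group cannot be told apart from fewer cells of a contributing type.

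**Figure D1:**
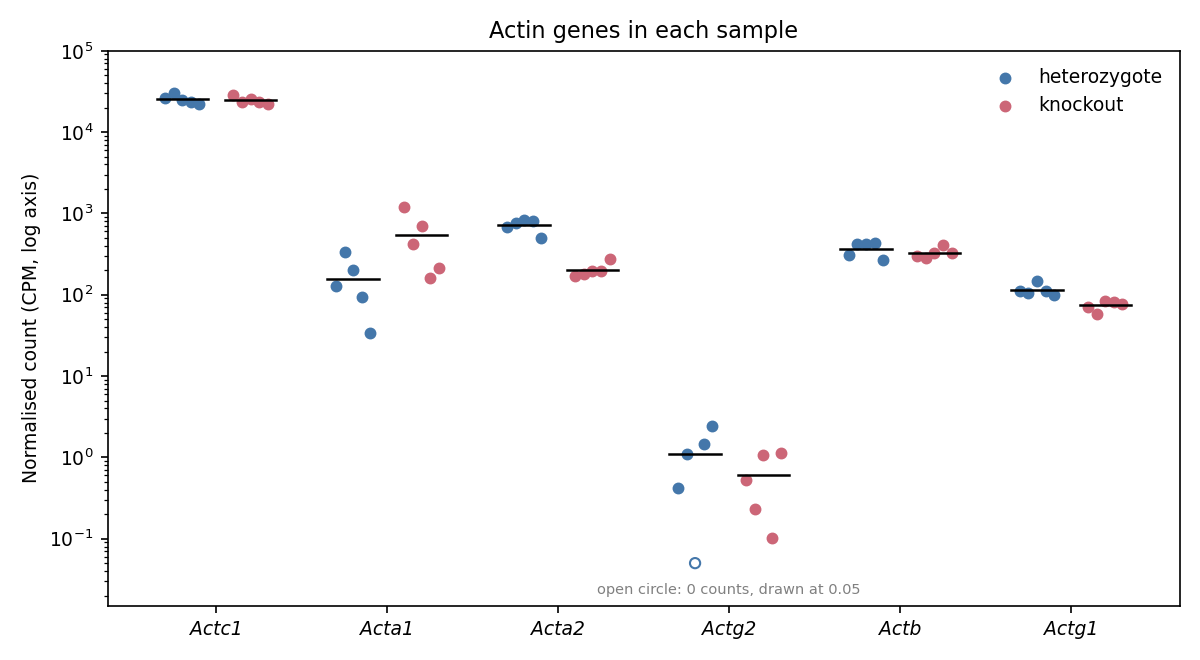
Normalised count (CPM, log axis) of each actin gene in the 5 heterozygote and 5 knockout samples, with 1 point per sample and a bar at the group mean. Acta2 and Actg1 are lower in every knockout, Acta1 spreads widely in both groups, and Actc1 lies between 22153 and 30480 CPM throughout. The open circle stands for 0 counts.

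Cardiac actin, the main actin of the adult heart, showed no detectable difference between the groups. Actc1 was at 26560, 30480, 24953, 23590 and 22153 CPM in heterozygotes 1 to 5. Knockouts 1 to 5 held 28969, 23487, 25847, 23267 and 22453 CPM. The ranges lay over one another, and the highest sample exceeded the lowest 1.38-fold in the heterozygote and 1.29-fold in the knockout. The means were 25547 ± 3204 and 24804 ± 2649 CPM (SD, n = 5 each), with a log2 fold change of -0.04 (SE 0.101, p 0.818 adjusted over all genes, edgeR). Its sign turned positive with library totals alone (0.04) and with voom (0.01). Per gene length, Actc1 was the most abundant of the 11870 tested genes in both groups. It made up 94.98% ± 0.906 of all actin counts in the heterozygote and 95.7% ± 0.895 in the knockout (exact two-sided permutation p = 0.254). The 6 genes together took 2.61% ± 0.270 of all counts in the heterozygote and 2.66% ± 0.239 in the knockout, so the sum of actin messages was nearly level while its minor parts moved.

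Skeletal actin was the only member called higher, and it varied most among the 5 actin genes with more than 25 counts in every sample. Acta1 was at 126, 332, 202, 92.7 and 34.2 CPM in heterozygotes 1 to 5. Knockouts 1 to 5 held 1200, 426, 705, 160 and 212 CPM. Knockouts 1, 2 and 3 stood above every heterozygote, whereas knockouts 4 and 5 lay within the heterozygote range. Within a group the highest sample exceeded the lowest 9.70-fold (heterozygote) and 7.498-fold (knockout), a spread that none of the other well-counted actin genes approached (1.29-fold to 1.66-fold). The means were 158 ± 115 and 541 ± 427 CPM, and the log2 fold change was 1.78 (SE 0.573, p 0.0429 adjusted over all genes, edgeR), a 3.44-fold rise. Most single samples decide the call, which was lost when heterozygote 1, 3, 4 or 5 or knockout 1, 2 or 3 was left out, with adjusted p-values of 0.0525 to 0.127. The log2 fold change stayed positive in all 10 of these fits and was lowest without knockout 1 (1.26). It was not called with the level of endothelial markers (1.42, SE 0.929, adjusted p 0.418), Y-linked genes (1.51, adjusted p 0.0889) or mural markers (1.78, adjusted p 0.0544) as a covariate. The 9 skeletal-muscle markers summed to 2.95 to 5.28 CPM in the heterozygote and 2.83 to 8.43 CPM in the knockout, and Myod1 had 0 counts. The 2 of them that were tested were above 0 (median log2 fold change 0.44), and 0 were called. The 5 atrial markers summed to 63.3 to 294 CPM in the heterozygote (mean 135) and 936 to 2344 CPM in the knockout (mean 1805). Most of these sums came from Nppa, with means of 107 and 1709 CPM. All 4 that were tested were above 0 (median log2 fold change 2.21), and 1 was called (Nppa). In the knockout the SDs of the others exceeded their means: Sln 17.1 ± 31.2, Myl7 46.5 ± 74.9, Myl4 29.9 ± 31.8 and Bmp10 2.60 ± 5.82 CPM. The part of the skeletal-muscle and atrial markers in the change of Acta1 was not tested.

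Smooth-muscle actin showed the clearest difference. Acta2 was at 672, 761, 827, 812 and 497 CPM in heterozygotes 1 to 5. Knockouts 1 to 5 held 168, 178, 194, 193 and 275 CPM. Every knockout lay below every heterozygote. Within a group the highest sample exceeded the lowest 1.66-fold (heterozygote) and 1.64-fold (knockout). The means were 714 ± 135 and 202 ± 42.6 CPM, with a log2 fold change of -1.82 (SE 0.159, p 3.98e-06 adjusted over all genes, edgeR), so the heterozygote level was 3.54-fold the knockout level. Leaving out single samples moved the log2 fold change between -1.96 and -1.77.

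Markers of mural cells (pericytes and vascular smooth muscle), which also make smooth-muscle actin, were mostly lower in the knockout, with 8 of 10 below 0 and a median log2 fold change of -0.35, but only Tagln was called lower (-1.07). Cspg4 was called higher (1.84, from 37.0 to 132 CPM), and with it the 10 genes summed to 495 to 734 CPM in the heterozygote and 549 to 714 CPM in the knockout. Myh11, the smooth-muscle myosin, was at 18.03 ± 8.00 and 11.4 ± 4.91 CPM, and the calponin gene Cnn1 at 1.63 and 3.45 CPM, neither of them called (adjusted p 0.224 and 0.0806). With the mean log2 CPM of these markers as a covariate, the log2 fold change of Acta2 was -1.88. That mean includes Cspg4 and Cnn1, which ran opposite to the 8 markers below 0. It therefore follows a fall of those 8 poorly, and the part of mural cells in the change of Acta2 was not tested. The 10 endothelial markers summed to 520 to 824 CPM in the heterozygote and 339 to 600 CPM in the knockout, ranges that overlap. All 10 had log2 fold changes below 0 (-0.76 to -0.38, median -0.43), 9 with an unadjusted p below 0.05, and 2 were called lower (Egfl7 and Cldn5). With these as a covariate, the log2 fold change of Acta2 was -1.83 (adjusted p 0.000417). The 8 leukocyte markers summed to 11.8 to 29.9 CPM in the heterozygote and 7.53 to 10.8 CPM in the knockout, without overlap. All 4 of them that were tested were below 0 (median -0.66), and 1 was called lower (Csf1r). The parts of endothelial cells and leukocytes in the changes of Acta2 and Actg1 were not tested.

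Enteric smooth-muscle actin was barely detected. Actg2 had 10, 9, 0, 13 and 25 counts in heterozygotes 1 to 5. Knockouts 1 to 5 held 5, 3, 11, 1 and 20 counts. The groups overlapped entirely. The log2 fold change was -0.73 (SE 0.702, adjusted p 0.520), and no difference was detectable at this depth. The 0 in heterozygote 3 allows a share of up to 0.00145% of its actin counts (3 counts of 207146), which covers counting error only.

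Of the 2 cytoplasmic actins, Actg1 was called lower and Actb was not called. Actg1 was at 110, 106, 149, 110 and 98.4 CPM in heterozygotes 1 to 5. Knockouts 1 to 5 held 70.2, 58.0, 83.8, 80.6 and 77.7 CPM. All knockouts lay below all heterozygotes. The means were 115 ± 19.9 and 74.1 ± 10.3 CPM, with a log2 fold change of -0.63 (SE 0.128, p 0.00337 adjusted over all genes, edgeR). Without heterozygote 3, which was the highest, it was -0.52 (adjusted p 0.00510). With the endothelial markers as a covariate it was -0.59 and no longer called (SE 0.183, edgeR adjusted p 0.0633). These markers themselves were all lower in the knockout, so the covariate runs partly along with genotype. The part of endothelial cells in the change of Actg1 was not tested. Actb was at 305, 424, 415, 436 and 264 CPM in heterozygotes 1 to 5. Knockouts 1 to 5 held 298, 282, 323, 405 and 322 CPM. Its groups overlapped, with means of 369 ± 78.9 and 326 ± 47.5 CPM and a log2 fold change of -0.18 (SE 0.146, adjusted p 0.442). Its sign turned with the endothelial covariate (0.10). The difference between the changes of Actg1 and Actb was not tested. Their ratio per gene length, formed after the values were seen, was 2.69 to 4.001 in the heterozygote and 3.87 to 5.04 in the knockout, with overlap between the groups.

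Shares of all actin counts do not depend on the scaling between libraries, but they come from the same counts and are no independent support. As a share, Acta2 differed without overlap between the groups, and Acta1 and Actg1 differed with overlap. The 6 shares were each compared by an exact two-sided permutation test over 252 arrangements of the samples, are not independent since they add up to the whole, and are given without adjustment. Acta2 made up 2.66% ± 0.486 of actin counts in the heterozygote and 0.793% ± 0.235 in the knockout (SD, n = 5, exact permutation p = 0.00794, a value below which 5 against 5 samples cannot go). Single heterozygotes ran from 2.16% (Wilson 95% interval 2.10 to 2.22%) to 3.24% (3.17 to 3.32%), and single knockouts from 0.547% (0.521 to 0.574%) to 1.18% (1.15 to 1.21%). Acta1 rose from 0.554% ± 0.347 to 1.97% ± 1.33 (exact permutation p = 0.0397), with overlap. Single knockouts ran from 0.664% (Wilson 95% interval 0.632 to 0.698%) to 3.91% (3.84 to 3.98%). Actg1 fell from 0.431% ± 0.0845 to 0.288% ± 0.0517 (exact permutation p = 0.0238), with overlap. The shares of Actb (1.37% and 1.28%, p = 0.587 by the same exact test) and Actg2 (0.00428% and 0.00237%, p = 0.429) did not pass.

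**Figure D2:**
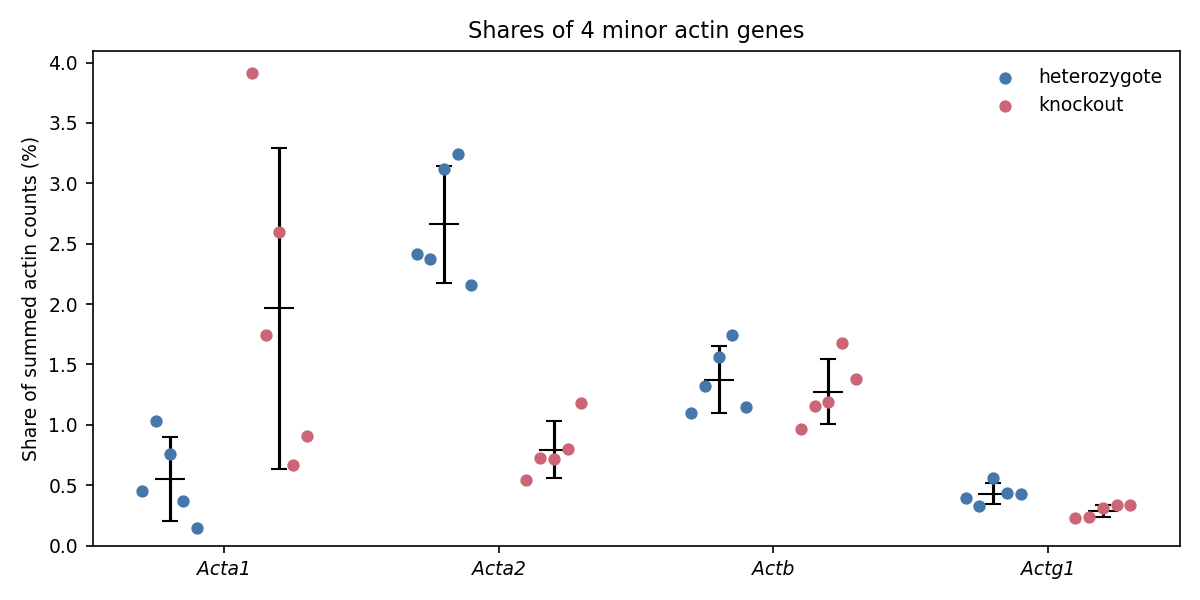
Share of summed actin counts (%) of Acta1, Acta2, Actb and Actg1, with 1 point per sample and bars at the mean with the SD (n = 5). Acta2 fell from 2.66% to 0.793% without overlap, while the knockout shares of Acta1 ran from 0.664% to 3.91%.

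Compared with one another per gene length (CPM per kilobase of exon), the minor actins changed places in the order of group means. In the heterozygote the order of mean levels was Actc1 (18379 ± 2305), Acta2 (401 ± 76.1), Actb (195 ± 41.8), Acta1 (110 ± 80.2), Actg1 (60.6 ± 10.5) and Actg2 (0.826 ± 0.725). Actb and Acta1, and Acta1 and Actg1, were neighbours whose ranges overlapped. In the knockout the order was Actc1 (17845 ± 1905), Acta1 (377 ± 298), Actb (173 ± 25.2), Acta2 (113 ± 23.9), Actg1 (39.1 ± 5.44) and Actg2 (0.465 ± 0.360). There the ranges of Acta1 and Actb overlapped, and Acta1 exceeded Actb within only 3 of the 5 knockouts. The ranges of Actb and Acta2 overlapped as well, although Actb exceeded Acta2 within each of the 5 knockouts. Among the 11870 tested genes, Acta1 went from rank 639 to rank 169 per length and Acta2 from rank 176 to rank 580. The ratio of skeletal to smooth-muscle actin per length, chosen after the values were seen and not tested, was 0.234, 0.542, 0.304, 0.142 and 0.0855 in heterozygotes 1 to 5. For knockouts 1 to 5 it was 8.88, 2.98, 4.52, 1.03 and 0.958. Smooth-muscle actin thus exceeded skeletal actin in every heterozygote. The ratio did not overlap between the groups, but neither did Acta2 alone, so the ratio says nothing further about Acta1, which did overlap.

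The 250 bases before the RefSeq start were read from a table of RefSeq promoters (build GRCm38.p6), in which 4 of the 6 members were matched by symbol (Acta1, Acta2, Actc1 and Actg1), and are shown because Acta1 and Acta2 were called in opposite directions. The windows are chr8:123894776-123895025, chr19:34255374-34255623, chr2:114052876-114053125 and chr11:120348496-120348745, all on the minus strand, printed 5′ to 3′ up to the base before the start. Capitals mark CArG boxes, exact or with 1 mismatch at any of the 10 bases.
Acta1: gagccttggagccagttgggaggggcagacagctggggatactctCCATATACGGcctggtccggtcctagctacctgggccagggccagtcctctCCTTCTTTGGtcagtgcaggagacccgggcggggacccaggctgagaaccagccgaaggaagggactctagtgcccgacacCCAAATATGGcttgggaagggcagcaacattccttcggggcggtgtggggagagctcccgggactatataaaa
Acta2: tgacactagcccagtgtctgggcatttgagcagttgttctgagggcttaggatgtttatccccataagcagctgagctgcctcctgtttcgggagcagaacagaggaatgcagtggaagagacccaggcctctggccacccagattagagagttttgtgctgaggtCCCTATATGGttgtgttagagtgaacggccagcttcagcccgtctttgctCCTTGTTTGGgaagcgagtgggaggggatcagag
Actc1: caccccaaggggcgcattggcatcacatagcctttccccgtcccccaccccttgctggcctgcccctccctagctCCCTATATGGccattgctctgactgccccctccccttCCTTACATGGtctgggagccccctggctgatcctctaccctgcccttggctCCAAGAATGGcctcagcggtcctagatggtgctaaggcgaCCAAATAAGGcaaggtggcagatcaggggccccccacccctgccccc
Actg1: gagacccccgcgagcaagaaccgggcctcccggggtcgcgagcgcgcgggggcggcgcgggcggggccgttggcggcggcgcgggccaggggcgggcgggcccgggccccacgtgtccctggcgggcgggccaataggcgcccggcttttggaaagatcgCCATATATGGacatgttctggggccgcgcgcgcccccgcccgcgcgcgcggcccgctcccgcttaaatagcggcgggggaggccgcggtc
The element is its own reverse complement, so both strands were searched at once. An exact CArG box was found once each in Acta1 (CCAAATATGG, 73 to 64 bases before the start), Actc1 (CCAAATAAGG, 47 to 38 bases) and Actg1 (CCATATATGG, 90 to 81 bases). Acta2 had none without a mismatch and 2 with 1 mismatch (CCCTATATGG, 84 to 75 bases, and CCTTGTTTGG, 34 to 25 bases). Acta1 had 2 further matches of that kind and Actc1 had 3, 1 of which has the same letters as the more distant match of Acta2. Of 32817 windows of the same length in the table, 1.47% held an exact box and 17.5% a box with 1 mismatch. An exact or near match was found in all 4 genes and in 18.6% of the windows. Of these genes Acta1 was called higher, Acta2 and Actg1 were called lower, and Actc1 was not called. The part of the matches in these changes was not tested. A 6-base search gave CATTCC, the core of the element bound by TEAD factors, once in Acta1 and once, on the other strand, in Acta2, and in 12.6% of all windows. TATAAA, searched on the gene's own strand, was found in Acta1 alone among the 4 (7.60% of all windows), and GATAAG, searched on both strands, in none of them (6.55%). No match overlapped a CArG box. The RefSeq starts lie upstream of those of the counting annotation, by 39 bases for Acta1, 37 for Acta2, 64 for Actc1 and 11 for Actg1. The bases between these starts were not searched, so a TATAAA or other match there would be missed. All matches given are matches of letters, and binding was not measured.

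Other genes of the pathway were read from lists, beside the 10.2% higher and 8.64% lower over all genes. Of 10 tested genes for SRF, its cofactors and partners, 3 were called higher and 0 lower. Myocd, which encodes the heart and smooth-muscle cofactor myocardin, averaged 142 ± 22.1 CPM in the heterozygote and 242 ± 75.2 CPM in the knockout (log2 fold change 0.77, SE 0.174, p 0.00644 adjusted over all genes, edgeR), and every knockout lay above every heterozygote. Mkl2, a cofactor that senses free actin monomers, rose by 0.37 (adjusted p 0.0162), and so did Elk4, a partner of SRF (0.34, adjusted p 0.0464), named after its value was seen. Srf itself was at -0.27 (adjusted p 0.117). Fewer than 3 were called higher in 15 of 21 other fits, and 0 with the endothelial covariate. Smooth-muscle contractile genes (10 tested, without Acta2 and Actg2) had 4 called lower and 1 higher, with a median log2 fold change of -0.43. The lower ones were Myl9, a regulatory light chain of myosin (-0.79, adjusted p 0.0105), and, named after their values were seen, Tagln (-1.07, 0.0339), Mylk (-0.77, 0.0457) and Smtn (-0.52, 0.00902). Tpm2, the beta tropomyosin gene, was the higher one (0.80, adjusted p 0.0472). In 12 of 21 other fits fewer than 4 were called lower (2 with the mural and 1 with the endothelial covariate), and in 14 none was called higher. Tagln, Cnn1 and Myh11 are also among the mural markers, so the mural covariate contains them and fewer calls are partly built in. The log2 fold changes of the tested smooth-muscle genes were nearer to 0 than that of Acta2 (-1.82), a difference that was not tested.

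Of 8 genes of immature or stressed heart muscle, 6 were called higher and 0 lower, with a median log2 fold change of 2.97. Acta1 (1.78) stood in the lower part of their range. Like the other lists, this list was chosen with earlier results of these data known, so its count and median are descriptive. It shares Nppa, Myl4 and Myl7 with the atrial markers. Casq1, skeletal-muscle calsequestrin, rose most (4.30, SE 0.315, p 8.34e-07 adjusted over all genes, edgeR), followed by Nppa, the atrial natriuretic peptide gene (3.99, adjusted p 7.11e-06). Among the called ones Nppb, the gene of brain natriuretic peptide, rose least (1.10, adjusted p 0.00717), and Myl4, an atrial light chain, was at 1.45 without a call (adjusted p 0.107). Partners of actin in the sarcomeric thin filament (17 tested) had 3 called higher and 2 lower, with a median of 0.08. The lower ones were Tpm1, the main cardiac tropomyosin (-0.51, adjusted p 0.000296), and Tnni3, cardiac troponin I (-0.53, adjusted p 0.00165). The higher ones were Tpm2, Lmod2, which lengthens thin filaments from their pointed end (0.42, adjusted p 0.0484), and Cap2, an actin monomer recycling factor named after its value was seen (0.38, adjusted p 0.00561). Fewer than 3 were called higher in 17 of 21 other fits, 1 in 9 of them and 0 with the endothelial covariate.

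**Figure D3:**
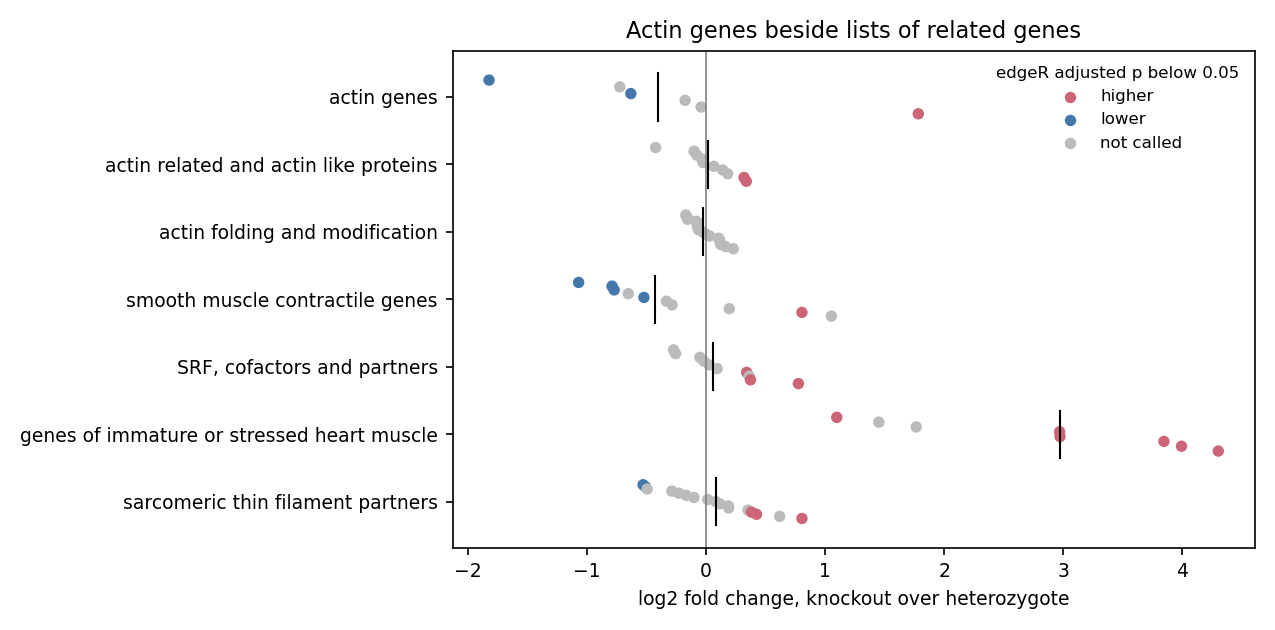
Log2 fold change (knockout over heterozygote) of each tested gene of the actin family and of 6 lists of related genes, with 1 point per gene, coloured by its call, and a bar at the median of each row. The actin genes span both directions, from -1.82 (Acta2) to 1.78 (Acta1), around a median of -0.40.

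**Figure D4:**
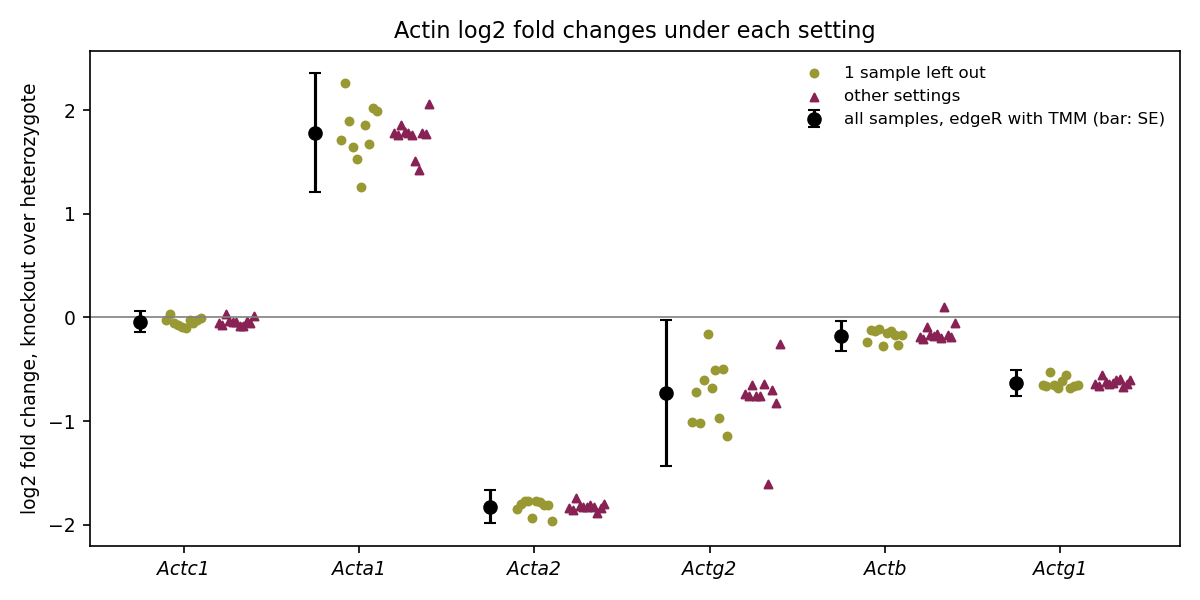
Log2 fold change of each actin gene in the fit of all samples (black, bar of 1 SE), with 1 sample left out (circles) and under the other settings (triangles). Acta2 stayed between -1.96 and -1.74 and Actg1 between -0.68 and -0.52, while Acta1 ran from 1.26 to 2.26.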

How the data were processed

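The authors deposited whole-number counts of reads per gene, without normalisation. Per the file headers, they were made with featureCounts 1.5.1, 4 threads and no other option, on the UCSC mm10 gene annotation; the submitters' processing notes name STAR 2.5.3a, CASAVA 1.8 and Subread 1.5.2. That program's defaults ignore strand and drop reads that align to several places. Per the labels' protocols, cDNA came from 10 ng of total RNA with 8 PCR cycles (SMART-Seq), and 500 pg went into each Nextera XT library. Of 14 count columns, 4 match no sample here and were not used. The read length is not given in the sources used here.

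Groups (5 and 5) were taken from the sample titles. Nothing but the title numbers tells the replicates apart; the series text calls them biological. Over 20 replicate pairs, chi-square per degree of freedom was 10.8 to 37.5, so no pair agreed within sampling noise. Genes were kept by filterByExpr (minimum count 10, minimum total 15), scaled by TMM and tested with edgeR's quasi-likelihood test (edgeR 4.0.16, limma 3.58.1, R 4.3.3) over all 10 samples, with Benjamini-Hochberg adjustment over 11870 genes and a threshold of 0.05. Log2 CPM used a prior count of 1. Shares were compared by exact permutation (scipy 1.17.1), with Wilson 95% intervals that cover counting error only. The procedure was tested on counts simulated with the dispersions fitted to these data, which checks the procedure and bears on none of the calls above.

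Alternatives were RLE, upper-quartile and library-total scaling, no filter, a mean of at least 5 CPM, the replicate block, Y-linked, endothelial and mural covariates, DESeq2 1.42.0, voom with sample weights, counts per length for shares, and leaving out each sample. The members, lists and tests were chosen with earlier results of these data known. Named were the 6 actin genes, Actn2, in each list the 2 highest and 2 lowest log2 fold changes at a mean of at least 10 CPM, and for each actin gene the 3 genes of the most similar pattern; other names were chosen after their values were seen.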

Additional observations from a re-analysis of the deposited data

Results flagged for a closer look

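In 26 groups of 5 values (log2 CPM and share of each actin gene, and total counts, in each genotype), a sample was set apart when its gap to the nearest other exceeded 0.71 of the range, which chance gives in about 1.3 of them. Knockout 5 stood apart in Acta2, with a log2 CPM of 8.10 where the next highest knockout had 7.60 (gap 0.711). Even so it was below every heterozygote, and without this sample the log2 fold change of Acta2 was -1.96. Actg1 was at 7.22 log2 CPM in heterozygote 3, against 6.79 in the next highest (gap 0.728), and without this sample Actg1 was still called lower (-0.52, edgeR adjusted p 0.00510). The library of heterozygote 1 held 25237696 counts and the second largest of that group 10309615 (gap 0.870). Without it Acta2 and Actg1 were called and Acta1 was not (edgeR adjusted p 0.0858).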

How the results depend on the processing

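Acta2 kept its direction and call in each of the 21 other fits (-1.96 to -1.74). Actg1 did so in all but the one with the endothelial covariate (-0.59, SE 0.183, edgeR adjusted p 0.0633), which left 1 actin gene called lower. Acta1 stayed positive, but was not called with the Y-linked (1.51, adjusted p 0.0889), endothelial (1.42, 0.418) or mural covariate (1.78, 0.0544), each of which left 0 actin genes called higher (edgeR; DESeq2 called 1). Leaving out 1 sample gave 1.26 to 2.26 for Acta1 and 0 to 1 actin genes called higher, and 0.925 to 1.74 points for its share, whose exact p was then 0.0159 to 0.0952. The sign of Actc1 turned with library totals (0.038), voom (0.011) and without heterozygote 2 (-0.10 to 0.032 over the samples), and that of Actb with the endothelial covariate (0.10). That covariate also moved the calls over all genes to 1011 (514 higher, 497 lower). For these changes the cause was not tested. Library totals alone moved the split of calls from 54.3% to 68.9% higher. Actg2 was not tested at a mean of 5 CPM.

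No label says that equal replicate numbers pair the samples, and the data did not settle it. Deviations of same-numbered samples correlated at -0.11 to 0.32, over 0.1 in 3 of 5 pairs. Of the heterozygotes 2, and of the knockouts 1, correlated best with the sample of their own number. With the replicate block 2182 genes were called, against 2241, and Acta1 was at 1.76 (adjusted p 0.00451). Sign flips of such pairs for the shares of Acta1 (1.41 points), Acta2 (-1.87) and Actg1 (-0.143) gave p = 0.0625, the smallest that 5 pairs allow in this exact test. Depth limits Actg2, with 0 to 25 counts per sample.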

Other observations

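Of 17 tested genes for actin folding and modification (the chaperonin CCT, prefoldin and modifying enzymes), 0 were called with edgeR, 1 higher with DESeq2 and 1 higher with voom. With edgeR 1 had an unadjusted p below 0.05 (Cct8, log2 fold change 0.23, SE 0.0815, edgeR adjusted p 0.0668). The median of the list was -0.03. Cct4 (-0.16) and Pdcl3 (-0.17) were the lowest and Vbp1 (0.16), a prefoldin subunit, the second highest. Of 10 tested actin-related proteins, 2 were called higher and 0 lower (10.2% and 8.64% over all genes), both of them subunits of the Arp2/3 complex that starts branched actin filaments. Actr3 averaged 209 ± 19.1 CPM in the heterozygote and 261 ± 3.10 CPM in the knockout (log2 fold change 0.32, SE 0.0847, edgeR adjusted p 0.0170) and Actr2 72.7 ± 11.4 and 91.9 ± 5.19 CPM (0.34, adjusted p 0.0438), while Actr3b was at -0.42 (adjusted p 0.0565) and Actr10 at -0.10. In 12 of 21 other fits 1 was called higher and with the endothelial covariate 0, and in 5 of 21 1 was called lower.

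The genes most like each actin gene were sought by the Pearson correlation of log2 CPM deviations from the group mean over the 10 samples, among 8368 genes averaging 10 CPM or more. These are the highest of many values and are given without a test. For Acta1 they were Plcg2, a phospholipase C (r = 0.95), Evi5l (0.94) and Adamtsl5 (0.93). Plcg2 and Adamtsl5 were called higher as well (log2 fold changes 1.08 and 1.60), and Evi5l was at -0.01. For Actc1 they were Mapk12, a p38 kinase of muscle (0.99), and the mitochondrial ribosomal protein genes Mrps34 (0.97) and Mrpl55 (0.96), which differed between the groups (1.55, -0.53 and -0.56) while Actc1 was not called. For Acta2 they were Ttc28 (0.95), Shb (0.94) and the splicing factor gene Sf1 (0.92), of which Ttc28 was called higher (0.59) and the others were not called (0.19 and -0.01). For Actb they were Mtf1 (0.98), Pkd1 (0.95) and Nfkb1 (0.94), and for Actg1 the stress-response factor gene Atf4 (0.94), BC017643 and Zfp623 (0.92 each). For Actg2, with at most 25 counts per sample, Phpt1, Mfap3 and Rnaseh2b stood at 0.92 each.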
